A study of Mus musculus with 14 samples.

Results

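The actin cytoskeleton and focal adhesion genes described here are 38 genes, chosen by symbol, of 47937 in the deposited count table. Their Ensembl identifiers were matched to symbols in GENCODE release M21 for the mouse. All 38 passed the filter on low counts that kept 13061 genes for testing. The list was drawn up with results of these samples in view, so calls for its members describe them and are not independent support. RNA was sequenced from cultured wild-type mouse macrophages that had been derived from bone marrow precursors. Treated cells had 3.5 h of supernatant from mast cell traps (n = 3) or from mast cells (n = 5), and the others were left untreated (n = 6). A mast cell intracellular trap is a mast cell that has drawn a neutrophil inside it. The labels give 1 of 3 batches for each library, and every group has libraries in every batch. They do not say that replicates were separate cultures or animals. The p-values thus reflect only how these libraries scatter, and that scatter may be technical.

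Focal adhesions, and the related podosomes of macrophages, tie integrins in the membrane to actin filaments inside the cell. Talin and kindlin bind and activate integrins, and vinculin, paxillin, zyxin and the complex of integrin-linked kinase with parvins join them to actin. Filaments are bundled by alpha-actinins and filamin, pulled on by non-muscle myosin, lengthened by the Ena/VASP proteins and severed by cofilin. Free actin in turn holds back a cofactor of serum response factor, the product of Srf, a transcription factor that binds the CArG box found before many actin genes.

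Promoter sequences show which members carry that box close to their start. RefSeq promoters of build GRCm38.p6, from 250 bases before to 50 after the annotated start, were matched for 33 of the 38 members. Pxn, Parva, Ptk2b, Actb and Pdlim2 had no entry. Some have more than 1 annotated start, which gives 40 promoters. A CArG box was found on either strand in 4 of the 40, each of a different member, against 1.63% of all 32851 promoters of the same length. The 4 are shown 5′ to 3′ on the strand of the gene, with CArG boxes in capitals. In Srf, which has a pair of them, the capitals nearer its start mark the TATA motif described after the sequences.
Vcl (chr14:20929148-20929447, plus strand): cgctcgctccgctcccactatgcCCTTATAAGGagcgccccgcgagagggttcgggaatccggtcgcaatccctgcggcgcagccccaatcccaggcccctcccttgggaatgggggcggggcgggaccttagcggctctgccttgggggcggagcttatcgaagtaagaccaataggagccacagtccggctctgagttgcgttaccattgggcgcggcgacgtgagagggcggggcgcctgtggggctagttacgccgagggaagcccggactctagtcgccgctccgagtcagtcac
Actg1 (chr11:120348446-120348745, minus strand): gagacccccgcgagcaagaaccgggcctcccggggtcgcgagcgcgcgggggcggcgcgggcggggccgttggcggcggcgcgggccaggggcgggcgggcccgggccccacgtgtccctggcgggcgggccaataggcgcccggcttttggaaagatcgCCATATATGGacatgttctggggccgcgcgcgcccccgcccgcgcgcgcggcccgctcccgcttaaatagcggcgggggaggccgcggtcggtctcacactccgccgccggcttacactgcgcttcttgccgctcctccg
Cnn2 (chr10:79988350-79988649, plus strand): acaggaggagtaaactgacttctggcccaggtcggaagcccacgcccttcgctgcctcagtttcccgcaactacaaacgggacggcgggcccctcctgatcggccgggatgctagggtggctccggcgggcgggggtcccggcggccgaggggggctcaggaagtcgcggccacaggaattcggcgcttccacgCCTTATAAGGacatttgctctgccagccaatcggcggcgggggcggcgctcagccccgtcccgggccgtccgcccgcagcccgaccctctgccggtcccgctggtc
Srf (chr17:46556113-46556412, minus strand): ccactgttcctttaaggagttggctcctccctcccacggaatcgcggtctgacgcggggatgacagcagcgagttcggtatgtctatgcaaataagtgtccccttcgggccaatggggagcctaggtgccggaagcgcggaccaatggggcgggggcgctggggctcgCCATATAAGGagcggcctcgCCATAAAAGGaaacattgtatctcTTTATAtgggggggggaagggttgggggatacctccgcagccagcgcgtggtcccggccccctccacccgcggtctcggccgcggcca
The CArG box lay 227 bases before the start in Vcl, 90 before it in Actg1, 56 before it in Cnn2, and 82 and 62 before it in Srf. Over all libraries, none of these 4 genes passed the test with either supernatant. Without batch 3, Vcl rose by 0.36 with mast cell supernatant (edgeR adjusted p = 0.00258), while in batch 3 its log2 difference was -0.31. The 3 members with the largest changes after treatment, Cass4, Luzp1 and Pdlim7, had none of the CArG, CRE, AP-1 or TATA motifs in the same window. The core of the Sp1 site lay 43 and 12 bases before the start in Luzp1 and 38 before it in Pdlim7, and was not in that of Cass4. Their promoters are shown in lower case for comparison.
Cass4 (chr2:172393394-172393693, plus strand): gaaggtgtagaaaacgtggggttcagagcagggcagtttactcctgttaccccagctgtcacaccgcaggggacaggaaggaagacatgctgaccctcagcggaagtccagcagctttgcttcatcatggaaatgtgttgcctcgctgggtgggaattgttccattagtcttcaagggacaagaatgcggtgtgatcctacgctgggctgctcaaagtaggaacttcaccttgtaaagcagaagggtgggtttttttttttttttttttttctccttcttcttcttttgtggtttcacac
Luzp1 (chr4:136469511-136469810, plus strand): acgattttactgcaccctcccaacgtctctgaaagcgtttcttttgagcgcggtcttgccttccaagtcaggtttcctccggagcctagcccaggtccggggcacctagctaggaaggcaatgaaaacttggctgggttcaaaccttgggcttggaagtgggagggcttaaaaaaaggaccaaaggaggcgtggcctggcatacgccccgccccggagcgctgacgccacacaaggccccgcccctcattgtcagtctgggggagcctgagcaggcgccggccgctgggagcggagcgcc
Pdlim7 (chr13:55513397-55513696, minus strand): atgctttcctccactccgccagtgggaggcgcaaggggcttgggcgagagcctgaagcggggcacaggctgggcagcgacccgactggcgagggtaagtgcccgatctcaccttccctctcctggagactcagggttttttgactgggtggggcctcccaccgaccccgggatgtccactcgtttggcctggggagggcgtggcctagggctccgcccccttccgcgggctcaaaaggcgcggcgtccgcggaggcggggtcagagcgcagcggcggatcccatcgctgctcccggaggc
Other motifs were searched on both strands by their letters. TGANTCA, the AP-1 site, was in 3 of the 40 promoters (of Zyx, Actn4 and Myl12a) and in 7.81% of all. TGACGTCA, the cAMP response element (CRE), was in 0 of 40 and in 1.79% of all. TATAAA was in 4 of 40 and in 13.6% of all. GGGCGG, the core of the Sp1 site, was in 29 of 40 and in 35.7% of all. A match of letters is a description of these windows and not a binding site.

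Libraries held 12414738 to 16491536 counts with trap supernatant, 11729073 to 16123421 with mast cell supernatant and 13455686 to 22720419 untreated. The 38 members took 1.74% to 2.06% of them with trap supernatant, 1.79% to 1.96% with mast cell supernatant and 1.58% to 2.05% untreated. Macrophage markers were present in all libraries, with 9 genes summing to 8848 to 19000 CPM (counts per 1e+06 counts of a library, scaled by edgeR's TMM factors) with trap supernatant, 8803 to 20180 with mast cell supernatant and 9016 to 18660 untreated. Lyz2, the macrophage lysozyme gene, stood apart: it had 1 to 2 counts in each of the 5 libraries of batch 3, against 68853 to 93059 in batch 2 and 115226 to 224532 in batch 1. All are labelled wild type, and calls for members are therefore given with and without batch 3. The 12 mast cell markers summed to 88.3, 777 and 2081 CPM in the trap libraries of batches 1, 2 and 3. They summed to 85.7 and 113.8 CPM in the mast cell supernatant libraries of batch 1, 1458 in that of batch 2 and 299.3 and 237.3 in batch 3, against 7.11 to 9.36 CPM untreated. Of the 12, 8 rose with trap and 10 with mast cell supernatant by edgeR, and 11 with each by DESeq2. Mcpt4, Tpsb2 and Tpsab1 were at 0 in untreated cells. The 9 fibroblast and smooth muscle markers summed to 148.6, 163.7 and 140.8 to 145.3 CPM in the trap, mast cell supernatant and untreated libraries of batch 2, and to 8.62 to 29.6 CPM in all others. Of the tested neutrophil and fibroblast markers, 0 of 9 and 0 of 3 passed with either supernatant by edgeR, DESeq2 or limma-voom, with 0 at an unadjusted p under 0.05. Of 5 platelet markers 1 rose with each by edgeR and 2 by DESeq2.

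Levels in untreated macrophages spanned the range from the most abundant mRNAs to transcripts near the detection limit. Per kilobase of exon, Actb, which encodes beta-actin, was at 1835 CPM and ranked 16 of 13025 genes. Cfl1, the gene of the severing protein cofilin, followed at 533.9 CPM per kilobase, then Cap1, whose product recharges actin monomers, at 354, Actg1 (gamma-actin) at 322.1 and Tagln2, an actin-binding transgelin, at 271.7. Over the 6 libraries the ranges of Actb and Cfl1 each lay above those of the genes after them, while Cap1, Actg1 and Tagln2 overlapped. In the middle stood the integrin-binding talin gene Tln1 (121.4) and the kindlin gene of blood cells, Fermt3 (54.0). At the low end were the Cas-family scaffold genes Nedd9 (1.54), Cass4 (1.06) and Bcar1 (0.410), and Parva, the gene of alpha-parvin, at 0.101 CPM per kilobase. Parvg, the parvin of blood cells, was at 7.57. By plain CPM, 23 of the 38 members averaged at least 100 and 6 under 10. Parva had 1 to 6 counts in each library outside batch 2, so its differences rest on few reads.

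**Figure D1:**
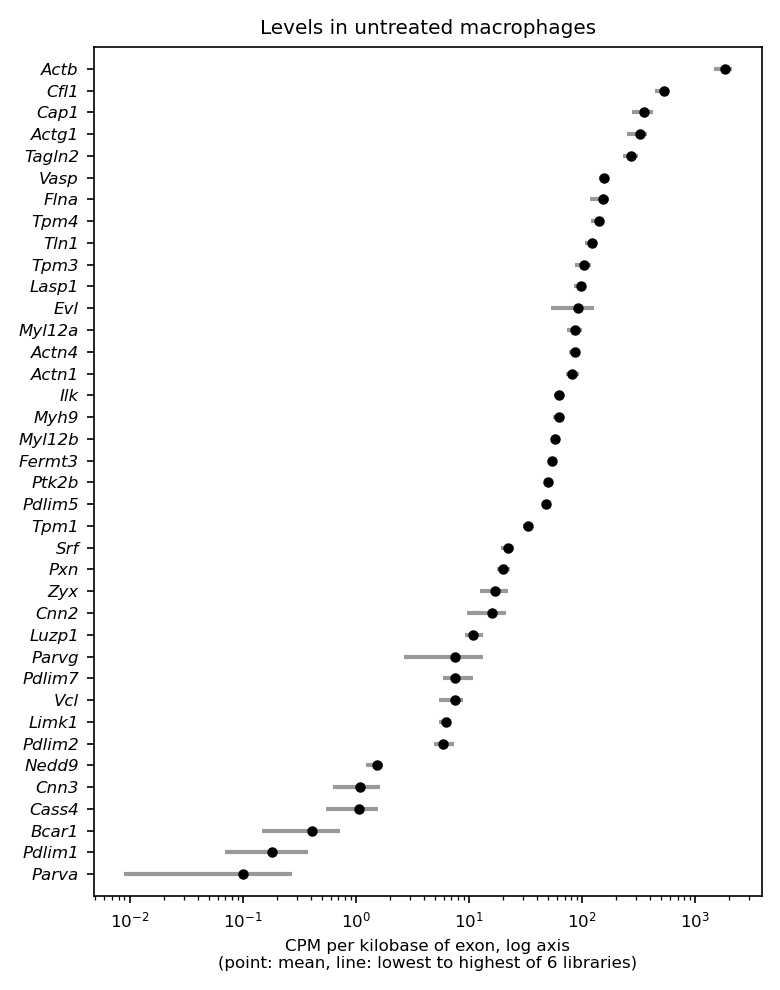
Mean level of each member in untreated macrophages, in CPM per kilobase of exon on a log axis, with a line over the 6 libraries. Actb stands highest at 1835 and Parva lowest at 0.101, with the widest line.

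After mast cell supernatant, 10 of the 38 members passed the test, 5 higher and 5 lower. Cass4 rose 2.83-fold, Pdlim7 and Luzp1 fell by 1.06 and 0.83 on the log2 scale, and the other 7 moved by under 0.4. After trap supernatant 4 passed, and all of them, Cass4, Evl, Luzp1 and Pdlim7, were also called in the same direction with mast cell supernatant. The share called was 26.3% of members with mast cell supernatant, where 4.79% of all tested genes were called, 2.17% higher and 2.62% lower. It was 10.5% of members with trap supernatant, where 1.72% were called, 0.919% higher and 0.796% lower. The shares over all genes were not matched to the members by level, and 23 of the 38 averaged at least 100 CPM untreated. The median member differed from untreated by 0.03 (log2) with trap supernatant and 0.08 with mast cell supernatant, beside -0.01 over all genes in each, and in each comparison 33 of the 38 lay within 0.3 of 0. Tests are edgeR's quasi-likelihood F test with group and batch as terms and Benjamini-Hochberg adjustment over all tested genes at 0.05. Both comparisons share the 6 untreated libraries. The count of 10 was 6 without mast cell supernatant replicate 1 or 3 or without batch 1, and 8 without batch 3. Those 8 include Vcl and Tpm1, which were not among the 10, while Fermt3, Pdlim5, Vasp and Cfl1 were lost. The trap count of 4 was the same without batch 3. With replicate numbers 1 to 3 alone, called the replicate block here, over 9 libraries, 3 members passed with each supernatant, Cass4, Luzp1 and Pdlim7 in both. That fit has the same group and batch terms and adds no pairing. It has fewer libraries, so calls lost in it do not show that a change depends on pairing. In bulk RNA, fewer cells of a kind and less RNA per cell cannot be told apart.

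**Figure D2:**
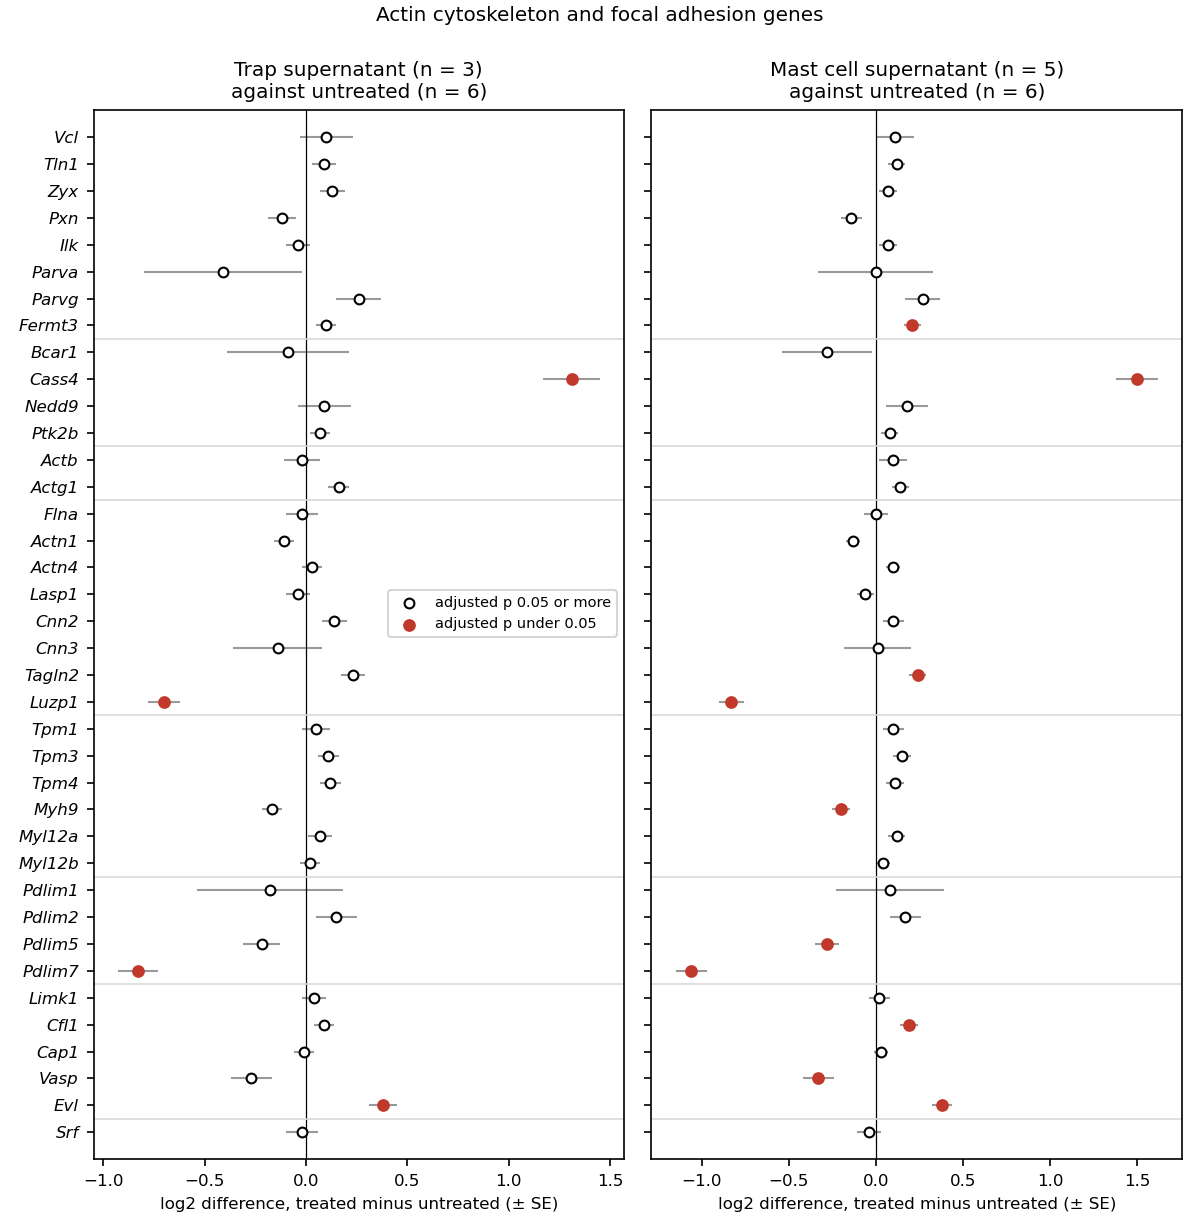
Log2 difference from untreated cells for the 38 members after trap supernatant (left) and mast cell supernatant (right), with SE bars, grouped by role. Filled points passed the test: 4 with trap and 10 with mast cell supernatant, Cass4 lying farthest to the right and Pdlim7 farthest to the left in both panels.

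The scaffold gene Cass4 (ENSMUSG00000074570, chromosome 2, 172393794 to 172433757, plus strand) had the largest change. Its protein belongs to the Cas family, which docks signalling enzymes at adhesions. Values of treated libraries are listed in order of batch, which is 1, 2 and 3 for trap supernatant and 1, 1, 2, 3 and 3 for mast cell supernatant. Cass4 was at 16.1, 12.9 and 12.0 CPM with trap supernatant, at 20.5, 19.6, 13.9, 12.2 and 13.9 CPM with mast cell supernatant, and at 2.93, 5.35 and 8.33 CPM (lowest, median and highest) untreated. Every treated library lay above every untreated one. It rose by 1.31 ± 0.14 (log2, SE; edgeR adjusted p = 0.000104) with trap supernatant and by 1.5 ± 0.12 (edgeR adjusted p = 2.02e-06) with mast cell supernatant. Within batches 1, 2 and 3 the differences were 0.97, 1.27 and 1.77 with trap and 1.29, 1.38 and 1.89 with mast cell supernatant. Without batch 3 they were 1.13 and 1.34, and both calls held. With trap supernatant the log2 difference was smallest in batch 1 and largest in batch 3. In CPM, the trap libraries went from 16.1 through 12.9 to 12.0 over batches 1, 2 and 3. The untreated means went from 8.18 through 5.35 to 3.53. The summed mast cell markers were also lowest in batch 1 and highest in batch 3 (88.3, 777 and 2081 CPM). With mast cell supernatant the Cass4 difference was largest in batch 3, whereas the markers were highest in batch 2. Neither response was called batch-dependent (edgeR interaction test, adjusted p = 0.35 with trap and 0.26 with mast cell supernatant). Any part of mast cell transcripts in the Cass4 level was not tested. Without the pair of treated libraries richest in mast cell transcripts, Cass4 rose by 1.19 with trap and 1.57 with mast cell supernatant. That check was chosen after seeing the data. Its relatives did not pass. Nedd9 was at 11.1, 6.99 and 13.8 CPM with trap supernatant, 11.5, 13.8, 10.6, 11.1 and 9.94 with mast cell supernatant and 7.82, 10.2 and 11.1 untreated, and the groups overlapped. Bcar1, the founding member p130Cas, stayed under 4 CPM in all libraries. As a description, Cass4 made up 44.4% to 57.6% of the summed CPM of these 3 genes with trap supernatant, 50% to 62.9% with mast cell supernatant and 20.7% to 41.4% untreated. Ptk2b, the gene of the adhesion kinase Pyk2, had log2 differences of 0.07 ± 0.05 with trap and 0.08 ± 0.05 with mast cell supernatant and did not pass.

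Among the 4 PDZ-LIM genes, whose proteins bring partners to alpha-actinin and actin fibres, Pdlim7 fell with both supernatants and Pdlim5 with mast cell supernatant. Pdlim7 (ENSMUSG00000021493, chromosome 13, 55495795 to 55513676, minus strand) was at 14.3, 31.7 and 17.1 CPM with trap supernatant, 11.9, 12.7, 24.4, 16.6 and 15.99 with mast cell supernatant, and 28.4, 31.7 and 52.8 untreated. The mast cell supernatant libraries all lay below the untreated ones, and the trap library of batch 2 lay above the lowest untreated library but below those of its own batch. Pdlim7 changed by -0.83 ± 0.1 with trap (edgeR adjusted p = 0.000364) and -1.06 ± 0.09 with mast cell supernatant (edgeR adjusted p = 2.41e-06). By batch the log2 differences were -1.08, -0.63 and -0.8 with trap and -1.29, -1.01 and -0.87 with mast cell supernatant, and without batch 3 they were -0.83 and -1.16 in the fit. Pdlim5 was at 414, 307 and 374 CPM with trap supernatant, 387, 398, 346, 319 and 318 with mast cell supernatant and 397, 413 and 465 untreated. It fell by 0.28 on the log2 scale with mast cell supernatant (edgeR adjusted p = 0.0382), and its trap difference of -0.22 ± 0.09 did not pass. The call for Pdlim5 was lost without batch 3 (-0.13, edgeR adjusted p = 0.33) and with the replicate block (edgeR adjusted p = 0.31). Pdlim1 and Pdlim2 did not pass with either supernatant. Pdlim7 over Pdlim5 was 0.0346 to 0.103 with trap supernatant, 0.0308 to 0.0705 with mast cell supernatant and 0.0613 to 0.132 untreated, in CPM and with no test.

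Of the 8 crosslinkers and bundlers, Luzp1 fell with both supernatants and Tagln2 rose with mast cell supernatant. Luzp1 (ENSMUSG00000001089, chromosome 4, 136469761 to 136554780, plus strand) encodes a leucine zipper protein found on actin filaments and at the centrosome. It was at 47.3, 61.8 and 52.3 CPM with trap supernatant, 40.2, 39.4, 67.2, 41.2 and 50.1 with mast cell supernatant and 74.3, 82.8 and 108 untreated, and every treated library lay below every untreated one. The log2 difference was -0.7 ± 0.08 with trap (edgeR adjusted p = 0.000326) and -0.83 ± 0.07 with mast cell supernatant (edgeR adjusted p = 3.58e-06). By batch it was -0.66, -0.77 and -0.65 with trap and -0.91, -0.65 and -0.85 with mast cell supernatant, and the fit without batch 3 gave -0.71 and -0.8. Tagln2 was at 754, 614 and 619 CPM with trap supernatant, 772, 812, 591, 644 and 594 with mast cell supernatant and 474, 553 and 652 untreated. The groups overlapped across batches, but within each batch every treated library was above every untreated one. Tagln2 rose by 0.24 ± 0.05 with mast cell supernatant (edgeR adjusted p = 0.00784), while the trap difference of 0.23 ± 0.06 missed the threshold (edgeR adjusted p = 0.0517; 0.0115 by DESeq2). With the replicate block the mast cell supernatant call was lost (edgeR adjusted p = 0.159), and without batch 3 it held (0.25, edgeR adjusted p = 0.00912).

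The alpha-actinin genes, whose products cross-link filaments, gave no call by edgeR. Actn1 was at 461, 379.6 and 416 CPM with trap supernatant, 467, 499, 358, 398 and 401 with mast cell supernatant and 397, 436 and 521 untreated. It lay below the untreated libraries within every batch with both supernatants, by -0.11 ± 0.05 and -0.13 ± 0.04 on the log2 scale, without passing (edgeR adjusted p = 0.305 and 0.0709; 0.03 by DESeq2 with mast cell supernatant). Actn4 was at 568, 487 and 552 CPM with trap supernatant, 582, 620.2, 524, 571 and 574 with mast cell supernatant and 470.4, 529.8 and 573 untreated, and the groups overlapped. The Actn1 to Actn4 ratio in CPM was 0.753 to 0.812, 0.683 to 0.804 and 0.775 to 0.933 in these groups, with no test of the difference between paralogues. Lasp1, Cnn2 and Cnn3 also did not pass.

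Filament elongation and turnover genes moved in different directions. Evl (ENSMUSG00000021262, chromosome 12, 108554720 to 108688516, plus strand) and Vasp encode related Ena/VASP proteins that lengthen filaments. Evl was at 414, 231 and 376 CPM with trap supernatant, 419.6, 448, 201, 416 and 398 with mast cell supernatant and 157, 283 and 373 untreated. Libraries of batch 2 were lowest in all 3 groups, and within each batch all treated libraries were above the untreated ones. Evl rose by 0.38 ± 0.07 with trap (edgeR adjusted p = 0.00895) and 0.38 ± 0.06 with mast cell supernatant (edgeR adjusted p = 0.00173), with batch values of 0.16, 0.56 and 0.41 and 0.23, 0.36 and 0.53. Neither call held with the replicate block (edgeR adjusted p = 0.232 with trap and 0.153 with mast cell supernatant). Without batch 3 both held, at 0.37 with trap (edgeR adjusted p = 0.0202) and 0.3 with mast cell supernatant (edgeR adjusted p = 0.0157). Without trap replicate 2 the trap difference was 0.28 (edgeR adjusted p = 0.0742). Vasp was at 328, 408 and 281 CPM with trap supernatant, 352, 362, 330.0, 284 and 259 with mast cell supernatant and 366, 408 and 441 untreated. All 5 mast cell supernatant libraries were below all untreated ones, and Vasp fell by 0.33 (edgeR adjusted p = 0.0405), a call lost without batch 3 (-0.18, edgeR adjusted p = 0.156) and with the replicate block (0.22 by edgeR). Its trap difference of -0.27 ± 0.1 did not pass. The ratio of Evl to Vasp in CPM was 0.566 to 1.34 with trap supernatant, 0.609 to 1.54 with mast cell supernatant and 0.355 to 0.998 untreated. That ratio is given as a description. Cfl1 was at 1711, 1713 and 1418 CPM with trap supernatant, 1891, 2000, 1657, 1589 and 1474 with mast cell supernatant and 1247, 1575 and 1670 untreated, with overlap. It rose by 0.19 ± 0.05 with mast cell supernatant (edgeR adjusted p = 0.0292; 0.289 with the replicate block and 0.0711 without batch 3), and its trap difference was 0.09 ± 0.05. Limk1, whose kinase phosphorylates cofilin, and Cap1 were within 0.04 of 0 on the log2 scale with both supernatants.

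**Figure D3:**
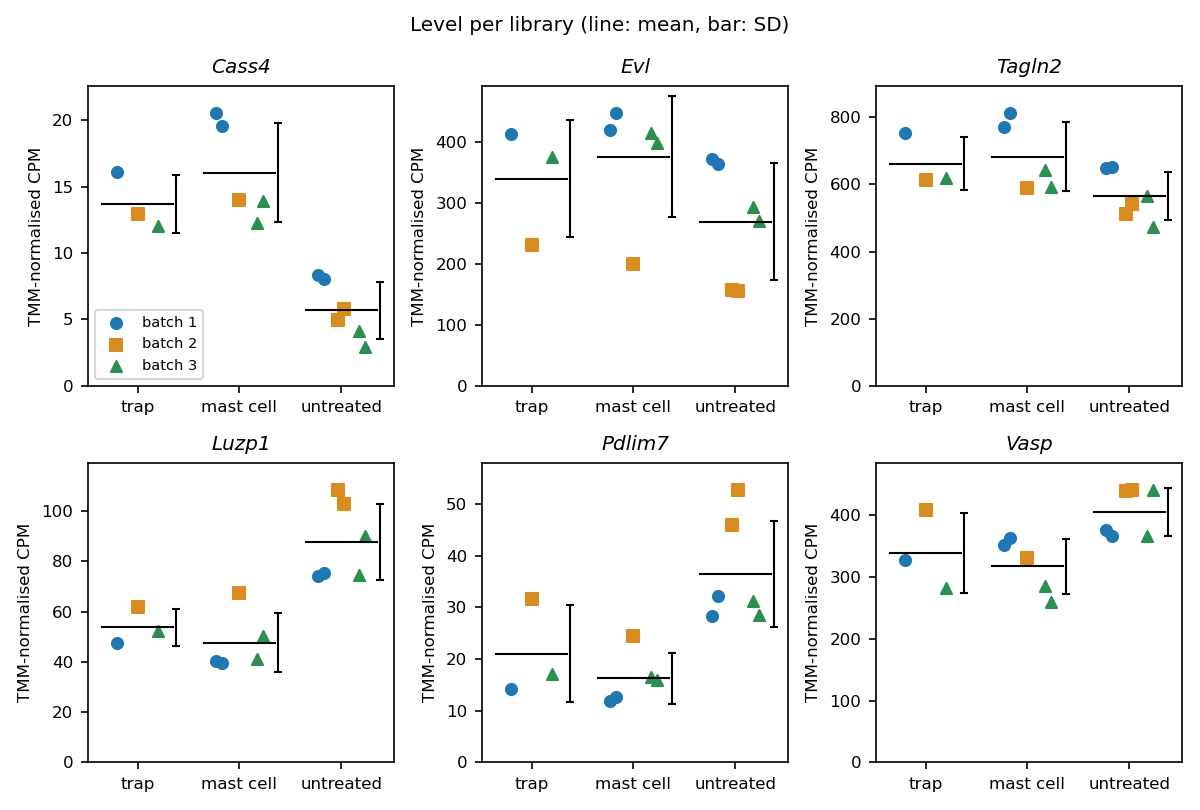
TMM-normalised CPM of 6 members in each library by group, with batch shown by marker and colour, a line at the group mean and a bar of 1 SD. The treated libraries of Cass4 lie above all untreated ones and those of Luzp1 below them, while Evl shifts by batch within each group.

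Of the 8 focal adhesion core genes, Fermt3 alone passed, with mast cell supernatant. Fermt3 encodes kindlin-3, which activates integrins in blood cells, and was at 298, 365 and 344 CPM with trap supernatant, 343, 348, 348, 387 and 367 with mast cell supernatant and 298, 312 and 331 untreated. Every mast cell supernatant library was above every untreated one. It rose by 0.21 ± 0.05 (edgeR adjusted p = 0.0181; 0.261 with the replicate block and 0.109 without batch 3), and its trap difference was 0.1 ± 0.05. Tln1, the gene of talin, was at 1285, 1210 and 1291 CPM with trap supernatant, 1330, 1331, 1246, 1264 and 1357 with mast cell supernatant and 1039, 1182 and 1322 untreated, with overlap and no call. Parvg had the largest difference of this group with mast cell supernatant that did not pass, 0.27 ± 0.1, and 0.26 ± 0.11 with trap. Its levels were 20.9, 44.6 and 15.2 CPM with trap supernatant, 20.5, 24.2, 43.3, 15.1 and 13.1 with mast cell supernatant and 8.26, 19.0 and 41.2 untreated, above the untreated libraries within every batch. Parva was at 0.227, 2.01 and 0.0806 CPM with trap supernatant, 0.312, 0.189, 2.97, 0.0850 and 0.0829 with mast cell supernatant and 0.0906, 0.303 and 2.77 untreated, high in the batch 2 libraries of all 3 groups. Zyx, Pxn, Ilk and Vcl did not pass, with log2 differences between -0.14 and 0.13.

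The actins, tropomyosins and myosin subunits changed little. Actb was at 4853, 5131 and 4522 CPM with trap supernatant, 6196, 5448, 4448, 5603 and 4839 with mast cell supernatant and 3954, 4954 and 5609 untreated, and Actg1 at 1145, 747 and 978, 1080, 1147, 691, 1081 and 954 and 659.8, 884 and 1005 CPM in the same groups. Neither passed, with overlapping groups. Myh9, the heavy chain of non-muscle myosin IIA, was the member of these 8 genes to pass. It was at 638, 777 and 722 CPM with trap supernatant, 655, 662, 744, 686 and 695 with mast cell supernatant and 712, 799.7 and 876 untreated. It fell by 0.2 with mast cell supernatant (edgeR adjusted p = 0.0186; 0.187 with the replicate block and 0.0104 without batch 3), lower within every batch, and its trap difference was -0.17 ± 0.05. The myosin light chain genes Myl12a and Myl12b, close together on chromosome 17, did not pass. Myl12a was at 349.8, 276 and 286 CPM with trap supernatant, 355, 391, 268, 313 and 279 with mast cell supernatant and 248, 283 and 335 untreated. Myl12b was at 156, 161 and 163, 166, 158, 151, 176 and 168 and 149.8, 159 and 162 CPM in these groups, and both overlapped. The ratio of Myh9 to the summed light chains was 1.26 to 1.78 with trap supernatant, 1.21 to 1.78 with mast cell supernatant and 1.63 to 2.06 untreated. Tropomyosins, which coat filaments, gave no call by edgeR over all libraries. With mast cell supernatant, Tpm3 was called by DESeq2 (0.16, DESeq2 adjusted p = 0.0498), Tpm1 without batch 3 (0.23, edgeR adjusted p = 0.0157) and Tpm4 without untreated replicate 3 (0.16, edgeR adjusted p = 0.0284). Tpm1 was at 257, 214 and 205 CPM with trap supernatant, 263, 287, 246, 191 and 191 with mast cell supernatant and 196, 216 and 238 untreated. Tpm3 was at 649, 739 and 649, 653, 703, 724, 677 and 648 and 531, 609 and 729 CPM, and Tpm4 at 378, 315 and 310.3, 374, 391.9, 316, 302 and 298 and 265, 305 and 345 CPM. Groups overlapped for all 3 tropomyosin genes. Srf itself was at 54.5, 71.6 and 62.6 CPM with trap supernatant, 61.2, 53.6, 65.4, 64.0 and 61.2 with mast cell supernatant and 55.2, 63.7 and 72.3 untreated, with log2 differences of -0.02 ± 0.08 and -0.04 ± 0.07.

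Some of these genes share sequence with others, so their counts are uncertain. Of the 75-base stretches in their annotated transcripts, 33.5% were found in another gene for Actg1, 19.1% for Tpm3, 15.9% for Myl12b and 14.6% for Myl12a, the last pair sharing with each other. For Tpm4 it was 9.11%, for Pdlim1 7.35%, for Cnn3 4.09%, for Ilk 3.05%, for Cfl1 2.81% and for Actb 1.58%. Cass4, Luzp1, Pdlim7, Evl and Vasp had 0%, though all of these but Pdlim7 overlap a gene on the opposite strand, and the strand setting of the counting is not given.

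Set directly against mast cell supernatant, trap supernatant gave 0 calls among the 38 members, and 0% of all 13061 genes were called. At an unadjusted p under 0.05 there were 569 genes in all, or 4.36%, 1 of them a member, Pdlim7. DESeq2 called 11 genes, 0 of them members, and limma-voom 0. Without batch 3, edgeR called 1 gene, which was no member. The log2 difference of trap minus mast cell supernatant was -0.19 ± 0.14 for Cass4, 0.13 ± 0.08 for Luzp1, 0.23 ± 0.11 for Pdlim7 and 0 ± 0.07 for Evl (SE). With 3 trap libraries, differences of this size were not separated from the spread between libraries.

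Counted without a model, treated libraries lay above all untreated libraries of their batch in every batch for 8 members with trap supernatant, or 21.1%, and for 6 with mast cell supernatant, or 15.8%. The shares over all genes were 7.87% and 4.07%. The 8 were Parvg, Cass4, Actg1, Cnn2, Tagln2, Tpm3, Cfl1 and Evl, and the 6 were Tln1, Parvg, Fermt3, Cass4, Tagln2 and Evl. They lay below for 4 members with trap supernatant (10.5%, with 8.13% of all genes), namely Actn1, Luzp1, Pdlim7 and Vasp. With mast cell supernatant the same position was held by 5 members (13.2%, with 4.65% of all genes), namely those 4 and Myh9.

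Some members responded to mast cell supernatant in a batch-dependent way. The difference between treated and untreated libraries depended on batch, by edgeR's test of the interaction over all genes (5 residual degrees of freedom), for 4 of 38 members, or 10.5%, close to the 9.29% of all genes called. Vcl, which encodes vinculin, the link between talin and actin, differed from untreated by 0.38, 0.33 and -0.31 (log2) over batches 1, 2 and 3 (edgeR adjusted p = 0.00772). Its mast cell supernatant libraries were at 92.0, 94.5, 57.2, 48.4 and 60.0 CPM, and its trap libraries at 84.0, 46.0 and 70.2 CPM, against untreated means of 71.7, 45.6 and 67.0 by batch. Vcl thus lay above untreated cells in batches 1 and 2 and below them in batch 3, and without batch 3 it rose by 0.36 (edgeR adjusted p = 0.00258). Flna, the gene of the crosslinker filamin A, had -0.22, -0.01 and 0.25 in batches 1, 2 and 3 (edgeR adjusted p = 0.033). It was at 1396, 1224, 1618, 1308 and 1474 CPM with mast cell supernatant, against untreated means of 1528, 1634 and 1173 CPM by batch. Pdlim5 and Vasp had their lowest differences in batch 3: -0.04, -0.23 and -0.53 for Pdlim5 (edgeR adjusted p = 0.00592) and -0.06, -0.41 and -0.57 for Vasp (edgeR adjusted p = 0.0187). Batch 2 has 1 mast cell supernatant library. Leaving out 1 library at a time, in 13 fits, lost the call 6 times for Flna (edgeR adjusted p up to 0.139) and 5 times for Vasp (up to 0.128 by edgeR). The Vcl call was lost without mast cell supernatant replicate 3 (0.079 by edgeR) and the Pdlim5 call without untreated replicate 4 (0.0611 by edgeR). The count of 4 was 2 without mast cell supernatant replicate 4 or 5 or untreated replicate 1, 1 without untreated replicate 4 and 8 without untreated replicate 3. With trap supernatant, 1 library per batch, 0 of 38 members were called and 5 had an unadjusted p under 0.05, where 3.75% of all genes were called; the count was 3 without untreated replicate 3 and 1 without untreated replicate 6. Whether the batch dependence differs between the supernatants was not tested.

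**Figure D4:**
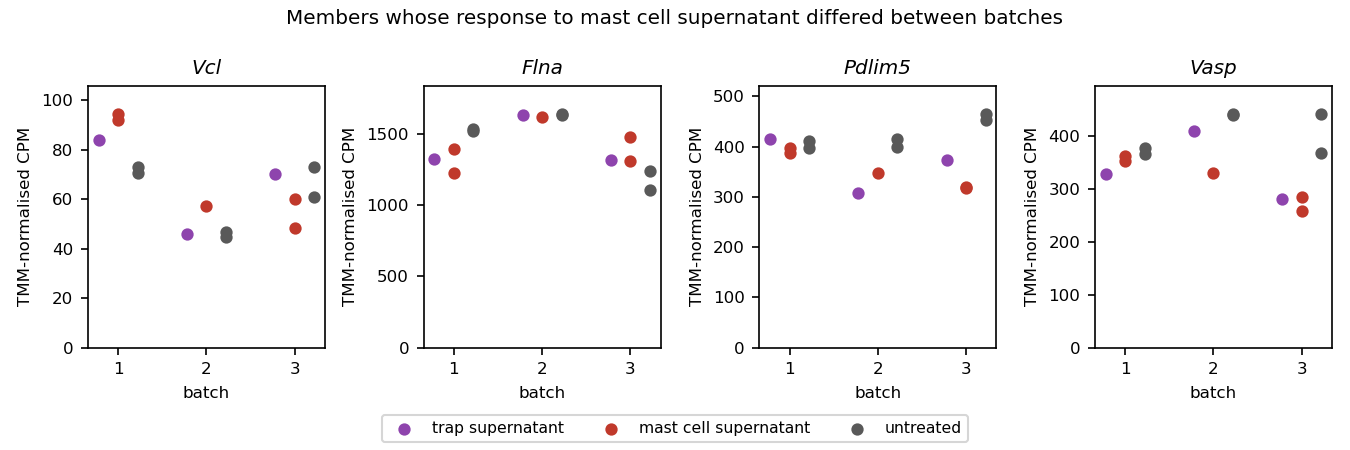
TMM-normalised CPM of Vcl, Flna, Pdlim5 and Vasp by batch, 1 point per library, coloured by group. Mast cell supernatant libraries of Vcl lie above the untreated ones in batches 1 and 2 and below them in batch 3, and those of Vasp lie farther below in batches 2 and 3 than in batch 1.

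Untreated macrophages themselves differed by batch in these genes. Of the 38 members, 28 differed between the 3 untreated batches, or 73.7%, where 38.1% of all genes were called. In size, the median absolute log2 difference from batch 1 was 0.25 for members and 0.23 for all genes in batch 2. In batch 3 it was 0.21 and 0.17. Batch 2 stood apart most: in it both untreated libraries lay above the other 4 for 15 members (39.5%, with 23.2% of all genes) and below for 9 (23.7%, with 23.5%). Evl averaged 369, 157 and 283 CPM in batches 1, 2 and 3 (edgeR adjusted p = 1.89e-09), and Cnn2, the gene of calponin 2, 51.0, 24.9 and 41.6 CPM (3.87e-07 by edgeR). Both were lowest in batch 2, as were Zyx (118, 69.0 and 86.7 CPM), Vcl (71.7, 45.6 and 67.0 CPM) and Actg1 (1001, 684 and 884 CPM). Parvg averaged 19.0, 41.2 and 9.98 CPM (edgeR adjusted p = 1.09e-08), Parva 0.146, 2.62 and 0.303, Bcar1 0.845, 3.23 and 1.52 and Pdlim1 0.590, 1.84 and 0.424 CPM, all 4 highest in batch 2. In these libraries the fibroblast and smooth muscle markers were also highest, as given above, and their part in the levels of Parva, Bcar1, Pdlim1 and Cnn3 was not tested. Cass4 had untreated means of 8.18, 5.35 and 3.53 CPM and Pdlim7 of 30.3, 49.4 and 29.9 CPM, so the baseline of the genes that responded also varied. With 2 untreated libraries per batch, which may be technical replicates, these tests compare the batches as sequenced. Without untreated replicate 5 the count of 28 was 18.

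**Figure D5:**
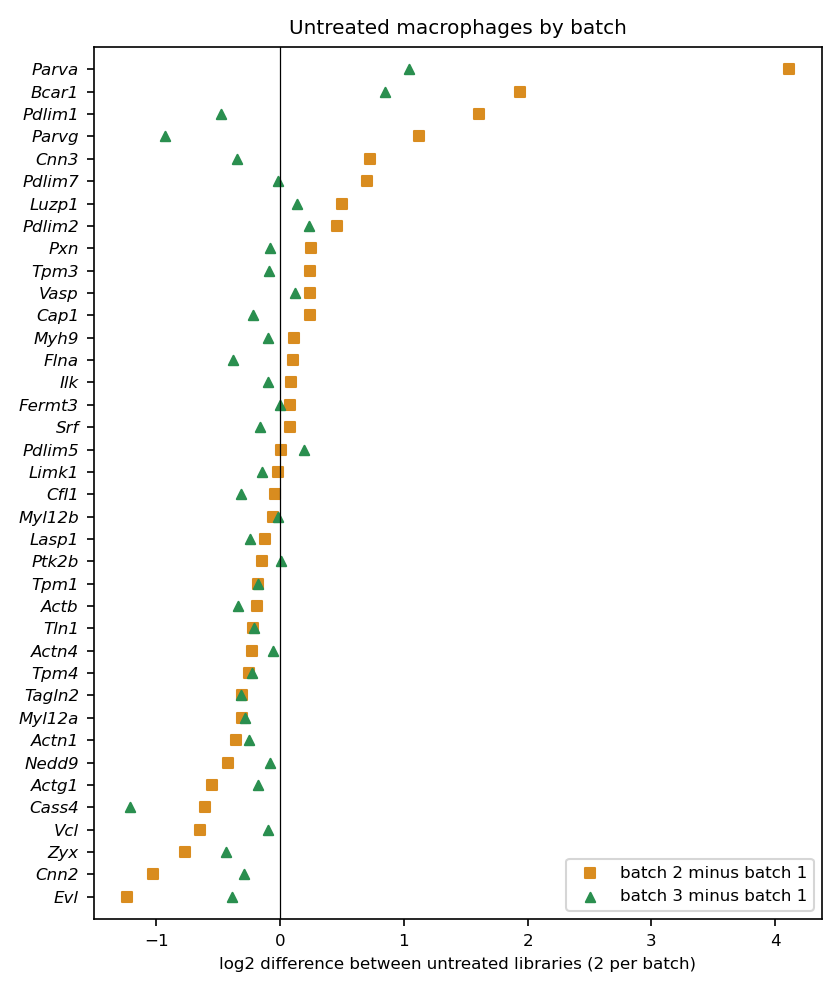
Log2 difference of each member between untreated libraries, batch 2 minus batch 1 (squares) and batch 3 minus batch 1 (triangles), ordered by the first. Evl and Cnn2 lie at the lower end and Parva, at 4.11, at the upper end.

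Genes of the same pathways outside the 38 were mostly without a call, though 1.72% of all genes were called with trap and 4.79% with mast cell supernatant. With mast cell supernatant every list in this paragraph lay above that share. With trap supernatant the turnover and bundling lists lay below it and the others above. In the Arp2/3 list, the branching complex and its activators, 1 of 17 rose with trap and 2 with mast cell supernatant, and 0 fell. Actr3, a core subunit, rose by 0.22 ± 0.05 with trap (edgeR adjusted p = 0.0288) and 0.16 ± 0.04 with mast cell supernatant (edgeR adjusted p = 0.0412). Was, the activator mutated in Wiskott-Aldrich syndrome, rose by 0.22 ± 0.06 with mast cell supernatant. Of 21 filament turnover and capping genes, 0 passed with trap supernatant, where 5 had an unadjusted p under 0.05, DESeq2 called 1 and limma-voom 0, and 2 rose with mast cell supernatant. These were Coro1a, the coronin of blood cells (0.31 ± 0.05), and the actin monomer binding gene Tmsb10 (0.29 ± 0.07). Of 12 bundling and membrane anchoring genes, 0 passed with trap by edgeR, DESeq2 or limma-voom (1 at an unadjusted p under 0.05) and 1 rose with mast cell supernatant, the adducin gene Add3 (0.35 ± 0.08). Among 9 formins, Diaph1 rose and Fmnl3 and Fhod1 fell with both supernatants, Fmnl3 by 0.62 on the log2 scale with trap and 0.71 with mast cell supernatant. Of 12 integrin genes, 0 rose, 3 fell with trap and 4 with mast cell supernatant, Itgb3, Itga5 and Itgb5 with both.

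In the list of 32 other adhesion adaptors and kinases, 1 rose and 2 fell with trap supernatant, and 2 rose and 3 fell with mast cell supernatant. Both lie above the shares of all genes called, 1.72% with trap and 4.79% with mast cell supernatant. Tns3, which encodes a tensin that joins integrins to actin, averaged 727.1 ± 41.8 CPM with trap (SD, n = 3), 677.8 ± 36.6 with mast cell supernatant (n = 5) and 904.6 ± 45.1 untreated (n = 6). It fell by 0.32 and 0.41 on the log2 scale with trap and mast cell supernatant (edgeR adjusted p = 0.0068 and 9.65e-05). Lpxn, the paxillin relative leupaxin, rose by 0.25 ± 0.06 and 0.29 ± 0.05, and Fblim1, the gene of migfilin, fell by 0.21 and 0.29. In the list of serum response factor targets through myocardin-related factors, edgeR called 0 of 13 tested genes with either supernatant. That list also holds genes of these factors themselves, so not all 13 are targets. Several of the 13 had an SD above their mean CPM in untreated cells. The median of the 13 was 0.02 with trap and 0.18 with mast cell supernatant, and 2 and 3 of them had an unadjusted p under 0.05. The median of 0.18 also hides differences by batch. With mast cell supernatant, most of the 13 lay above untreated cells in batch 1 and below them in batch 3. Their log2 differences ranged from -0.32 to 1.95 in batch 1 and from -1.17 to 0.49 in batch 3. DESeq2 called 0 with trap and 3 higher with mast cell supernatant, and limma-voom 0 and 1. Of 8 targets through ternary complex factors edgeR and DESeq2 called 0, and limma-voom called 2 higher with each supernatant. Their medians were 0.12 with trap and 0.19 with mast cell supernatant, with 0 and 1 at an unadjusted p under 0.05. The latter median hides opposite batches. With mast cell supernatant all 8 lay above untreated cells in batch 1 (log2 0.33 to 4.35) and below them in batch 3 (-3.01 to -0.12). Batch 2 ranged from -1.42 to 2.65. The medians over all genes were -0.01 in both comparisons. By the shares of all genes called, lists as short as 13 or 8 genes can hold 0 calls.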

How the data were processed

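RNA of 14 libraries of wild-type macrophages was sequenced after poly(A) selection and a stranded library preparation, per the labels' protocols. The deposited table holds 1 column per library of unnormalised whole-number read counts per gene. Per the submitters' processing notes, featureCounts 2.0.0 counted reads on GRCm38. Not given in the sources used here are the aligner, the annotation, the strand setting and any read filter. Overlapping genes and genes with near copies may therefore share reads.

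Groups and batches come from the labels. In R 4.3.3 with edgeR 4.0.16, filterByExpr kept 13061 of 47937 genes, and libraries were scaled by TMM. A robust quasi-likelihood model with group and batch was fitted to all 14 libraries, with 9 residual degrees of freedom, and tested at an adjusted p of 0.05 (Benjamini-Hochberg over all genes). A second model had 1 mean per group and batch. SE values follow from the F statistic. CPM are TMM-normalised, and log2 differences by batch compare mean log2 CPM after adding a prior count of 1. Totals of 11729073 to 22720419 counts limit the precision of genes with few reads. Scripts were tested on simulated data. The members and gene lists were chosen with earlier results of these data known. Genes named are the 38 members, with values by library for those called, those with the largest difference per role and paralogues, and up to 3 called genes per other list. A further gene list is not reported here. Alternatives were TMM against RLE factors, no filter, DESeq2 1.42.0 and limma-voom (limma 3.58.1). Further fits had no batch term, used a replicate block, or left out each batch and each library. The replicate block was replicates 1 to 3 alone, with the same group and batch terms. Replicate numbers 1 to 3 equal the batch label in every group: after removal of group means, 9 pairs with the same number correlated at 0.293 to 0.718, and other pairs at -0.556 to 0.168. Library pairs of 1 group and batch differed by a chi-square of 1.83 to 14.9 per degree of freedom, so none was counted as a duplicate. Promoters came from RefSeq on GRCm38.p6 and gene coordinates from GENCODE M21 on GRCm38.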

Additional observations from a re-analysis of the deposited data

Results flagged for a closer look

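Library values were searched for single samples far from the rest of their group, in 76 groups of the 38 members, where chance gives about 1 in 20. There were 5 such values. In mast cell supernatant replicate 2, the 1 library of that group in batch 2, Parva at 2.97 CPM and Bcar1 at 3.37 CPM lay far above the other 4 libraries, and Cnn2 at 25.8 CPM and Evl at 201 CPM lay far below them. The untreated and trap libraries of batch 2 were also high for Parva and Bcar1 and low for Cnn2 and Evl. In untreated replicate 2, also of batch 2, Myl12b at 149.8 CPM lay below the other 5.

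The response to mast cell supernatant differed between batches by edgeR's interaction test for Pdlim5 (edgeR adjusted p = 0.00592), Vcl (edgeR adjusted p = 0.00772), Vasp (edgeR adjusted p = 0.0187) and Flna (edgeR adjusted p = 0.033). Of 13 fits without 1 library, 6 lost the call for Flna, without mast cell supernatant replicate 4 or 5 or untreated replicate 1, 2, 4 or 5 (edgeR adjusted p up to 0.139). For Vasp 5 lost it, without mast cell supernatant replicate 1, 4 or 5 or untreated replicate 1 or 4 (up to 0.128 by edgeR), and 1 each for Vcl and Pdlim5. Vcl differed from untreated by 0.38, 0.33 and -0.31 (log2) over batches 1, 2 and 3. Flna had -0.22, -0.01 and 0.25, while Pdlim5 and Vasp were negative in all 3 batches and lowest in batch 3.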

How the results depend on the processing

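Cass4, Luzp1 and Pdlim7 kept their direction and their calls with both supernatants under every alternative except the fit with no batch term, which left 2 members called with mast cell supernatant and 0 with trap (62 and 15 of all genes). With mast cell supernatant, 3 members were called with the replicate block (84 of all genes) and 6 without batch 1. With trap supernatant, the replicate block called 3 members and 36 of all genes, against 224. The block changed no other call than those named in the report. Leaving out 1 library at a time gave 6 to 10 members with mast cell supernatant, 3 to 5 with trap, and 0 to 0 between the supernatants. It gave 1 to 8 batch-dependent members with mast cell supernatant over the 13 fits possible, 0 to 3 with trap over 11, and 18 to 32 between untreated batches. In these 14 fits the mast cell supernatant call was lost 9 times for Pdlim5, 7 each for Cfl1 and Vasp, 4 for Myh9, 2 for Fermt3 and 0 for Evl and Tagln2. The libraries were mast cell supernatant replicates 1, 2, 3 and 5, trap replicate 1 and untreated replicates 2, 3, 5 and 6 for Pdlim5 (edgeR adjusted p up to 0.107). For Vasp they were mast cell supernatant replicates 2, 3 and 5, trap replicate 1 and untreated replicates 2, 3 and 5 (up to 0.125 by edgeR). For Cfl1 they were mast cell supernatant replicates 1, 3 and 4 and untreated replicates 1, 2, 4 and 6 (up to 0.0782 by edgeR). Myh9 lost it without mast cell supernatant replicate 1 or 2 or untreated replicate 1 or 4 (up to 0.0685 by edgeR), and Fermt3 without mast cell supernatant replicate 1 or 3 (up to 0.0533 by edgeR). The Evl call with trap was lost without trap replicate 2, without batch 2 (edgeR adjusted p = 0.173) and without the pair of libraries richest in mast cell transcripts (0.0614 by edgeR). With trap supernatant, Myh9 was called without untreated replicate 6 (-0.2, edgeR adjusted p = 0.0447), and Tagln2 by limma-voom (adjusted p = 0.0496), with no filter on low counts (0.0195 by edgeR) and without mast cell supernatant replicate 2 or untreated replicate 3 (0.0495 and 0.0204 by edgeR). DESeq2 called 12 and 5 members with mast cell and trap supernatant, limma-voom 10 and 5. Signs turned for Vcl with mast cell supernatant without batch 1 (-0.04), and for Flna with trap without batch 1 (0.09) and over the single-library fits (-0.07 to 0.02), none of them called. Differences that round to 0 over all libraries also took either sign in the single-library fits, without a call. These were Flna with mast cell supernatant (-0.05 to 0.06) and Evl between the supernatants (-0.09 to 0.06). The cause of these shifts was not tested. Few reads limit Parva, Pdlim1, Bcar1 and Cnn3.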
